A study of Mus musculus with 12 samples.

Results

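The interferon-induced transmembrane (Ifitm) genes encode small proteins that sit in cellular membranes and block the fusion of enveloped viruses with the cell. The rows of the expression table with the symbols Ifitm1, Ifitm2, Ifitm3 and Ifitm6 are described here. These 4 members stood among 37775 genes in the table, and all 4 were among the 22118 genes that passed the filter on low counts. They were chosen by their measured differences between classical monocytes and monocyte-derived macrophages, which varied in size, so the values among those fractions are given as a description without a test.

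The libraries came from wild-type BALB/c mice with IgE-mediated chronic allergic inflammation (IgE-CAI) of the ear skin. The mice received 300 µg of IgE against the hapten TNP intravenously and were challenged a day later with 10 µg of TNP-coupled ovalbumin in the ear. On day 5 after challenge, 4 monocyte-macrophage fractions were sorted on the surface proteins Ly6C and PD-L2, with 3 libraries each. Ly6ChiPD-L2lo cells were labelled classical monocytes, Ly6ChiPD-L2hi cells early classical monocyte-derived macrophages (CMDMs), Ly6CloPD-L2hi cells late CMDMs and Ly6CloPD-L2lo cells resident-like macrophages. All fractions shared genotype, strain, treatment and day, and none came from uninflamed skin. The labels do not say whether the 3 libraries of a fraction came from separate or pooled mice, so the p-values measure only the spread between these libraries, which may be technical.

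Ifitm genes are known as targets of type I and type II interferon. Interferon bound to its receptor activates JAK kinases and STAT factors, and STAT and IRF proteins then bind the interferon-stimulated response element (ISRE) or the gamma-activated sequence (GAS) near such genes. Ifitm3 is known from the membranes of endosomes and lysosomes, where it restricts influenza virus, and Ifitm1 mainly from the cell surface, where it associates with the tetraspanin CD81. Ifitm2 is also known from endosomes, and Ifitm6 is a rodent member of the family described in macrophages.

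The 4 members lie side by side within 63088 bases of chromosome 7 (GRCm38, GENCODE annotation), chr7:140954837-141017924. Ifitm2 (ENSMUSG00000060591) occupies chr7:140954837-140955987, Ifitm3 (ENSMUSG00000025492) chr7:141009586-141010770 and Ifitm6 (ENSMUSG00000059108) chr7:141015699-141017924, all on the minus strand. Ifitm1 (ENSMUSG00000025491) at chr7:140967221-140969825 is on the plus strand. The transcript used for each has 2 exons and is 736 bases long for Ifitm1, 655 for Ifitm2, 678 for Ifitm3 and 663 for Ifitm6. The coding sequences of Ifitm1, Ifitm2 and Ifitm3 were 80.9 to 82.1% identical in pairs, whereas that of Ifitm6 was 66.3 to 70.4% identical to the others.

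The upstream sequences of the 4 members are shown because they hold, or lack, the letters through which interferon is known to act. RefSeq promoters (GRCm38.p6, 250 bases before to 50 after the start) matched all 4 members by symbol. They were searched on both strands for the ISRE core (GAAA, any 2 bases, GAAA), the GAS letters TTCNNNGAA and the letters GAGGAAGT of PU.1, a factor of myeloid cells. Each line below gives the part of the 250 bases that precedes the first annotated exon within that window. It runs 5′ to 3′ on the strand of the gene, with any match in capitals. The annotated genes of Ifitm1 and Ifitm6 begin further upstream, and the sequence before those outer starts was not searched.
Ifitm1, plus strand, chr7:140967826-140968027: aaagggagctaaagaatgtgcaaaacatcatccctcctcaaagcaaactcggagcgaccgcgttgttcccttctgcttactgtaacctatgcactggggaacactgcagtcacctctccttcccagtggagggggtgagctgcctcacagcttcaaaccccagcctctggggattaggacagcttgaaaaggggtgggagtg
Ifitm2, minus strand, chr7:140955988-140956211: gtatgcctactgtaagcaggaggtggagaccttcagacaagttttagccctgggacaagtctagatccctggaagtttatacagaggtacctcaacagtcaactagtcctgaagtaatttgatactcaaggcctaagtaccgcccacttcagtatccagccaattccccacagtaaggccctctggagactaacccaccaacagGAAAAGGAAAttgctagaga
Ifitm3, minus strand, chr7:141010771-141010994: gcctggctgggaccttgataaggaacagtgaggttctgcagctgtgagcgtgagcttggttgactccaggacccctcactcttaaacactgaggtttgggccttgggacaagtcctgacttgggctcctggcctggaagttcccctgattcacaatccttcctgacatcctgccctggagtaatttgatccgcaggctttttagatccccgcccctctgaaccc
Ifitm6, minus strand, chr7:141016909-141017142: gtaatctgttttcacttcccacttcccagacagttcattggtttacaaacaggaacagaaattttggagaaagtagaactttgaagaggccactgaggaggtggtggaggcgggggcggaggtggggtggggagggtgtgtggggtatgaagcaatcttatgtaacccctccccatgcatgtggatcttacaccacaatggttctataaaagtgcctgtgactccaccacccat

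Ifitm3 and Ifitm6 also had matches close to the RefSeq start, within the first exon of the transcript used, and the 30 bases around them are shown for that reason.
Ifitm3, minus strand, chr7:141010715-141010744: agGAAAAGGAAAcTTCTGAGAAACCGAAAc
Ifitm6, minus strand, chr7:141016883-141016912: ccatatgaacTTCCTTGAAacaagagcttc
The capitals in Ifitm3 mark an ISRE core, a GAS and a second ISRE core that overlaps the GAS, and those in Ifitm6 mark a GAS. The same ISRE letters, GAAAAGGAAA, stood before the start of Ifitm2 and just after that of Ifitm3. No ISRE or GAS letters were found in the Ifitm1 window, and no PU.1 letters in any of the 4. Of 32851 RefSeq promoters of that length, 3.44% held the ISRE core, 8.3% the GAS and 3.2% the PU.1 letters. Of 35 listed interferon-stimulated genes, 25 had a promoter in the table and 14 of these (56%) held the ISRE core. A match is a description of the letters and not of factor binding.

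Total counts ranged from 12537178 to 19844113 per library. Levels are given as CPM, the read count scaled to the TMM-adjusted library size, and levels of different genes are set side by side only as CPM per kilobase of transcript. Ly6c2, a gene for Ly6C, had a mean of 492 CPM in classical monocytes but 49.3 CPM in early CMDMs, which were also sorted as Ly6Chi, against 19.1 and 17.5 CPM in late CMDMs and resident-like macrophages. Pdcd1lg2, the gene for PD-L2, was higher in the PD-L2hi fractions (21.4 and 32.2 CPM in early and late CMDMs) than in the PD-L2lo ones (14.1 and 9.6 CPM). The macrophage gene Adgre1 stood at 86.8 CPM in early CMDMs, close to the 84.7 CPM of classical monocytes, and at 201 and 183 CPM in late CMDMs and resident-like macrophages. The sum of 8 macrophage markers, Adgre1 among them, was 1313 to 1983 CPM in classical monocytes and 1494 to 2517 CPM in early CMDMs. It was 4875 to 5206 CPM in late CMDMs and 3949 to 4352 CPM in resident-like macrophages. Resident-like macrophages carried Ccr2 at 439 CPM, against 390 CPM in classical monocytes, and their summed level of 6 dendritic cell markers was 751 to 1003 CPM against 76 to 174 CPM elsewhere. Summed levels of 6 keratinocyte markers reached 17096 to 27284 CPM in early CMDMs and 1871 to 4050 CPM in the other libraries. Those of 6 fibroblast markers were 3254 to 5588 CPM in classical monocytes and 2988 to 4205 CPM in early CMDMs. In late CMDMs and resident-like macrophages they were 478 to 499 CPM and 276 to 358 CPM. The sum of 10 pan-leukocyte genes was 5469 to 5692 CPM in classical monocytes and 4796 to 4969 CPM in resident-like macrophages, but only 1360 to 2176 CPM for early and 2971 to 3345 CPM for late CMDMs. The part of these other RNAs in the Ifitm values was not tested, and in bulk RNA fewer cells of a type cannot be told apart from less RNA per cell.

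Ifitm2 and Ifitm3 supplied most Ifitm transcripts in every fraction. Per kilobase, Ifitm2 made up 39.4 to 62% and Ifitm3 33.4 to 54.6% of the summed level of the 4 members in a library. Ifitm6 made up 4.44 to 9.2% of that sum in classical monocytes, 0.933 to 1.03% in early CMDMs, 0.766 to 1.28% in late CMDMs and 2.02 to 2.7% in resident-like macrophages. Ifitm1 made up 2.33 to 4.7%, 1.29 to 1.52%, 0.874 to 1.16% and 1.54 to 2.33% in the same order. The minor members thus held their largest shares in classical monocytes, and their shares in resident-like macrophages did not overlap with those in either CMDM fraction. The summed level had a median of 1135 CPM in classical monocytes and of 610 and 670 CPM for early and late CMDMs, and it was 611 CPM in resident-like macrophages.

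Ifitm3 had a mean of 861 ± 272 CPM per kilobase (SD, n = 3) in classical monocytes, against 734 ± 155 for Ifitm2, but the order was not the same in every library. In replicate 3 Ifitm2 was the higher, at 614 against 589 CPM per kilobase, and reads of Ifitm2 may also have been counted for genes that share its sequence. In classical monocytes its 3 libraries stood at 584, 769 and 399 CPM, against 338, 279 and 294 CPM for early CMDMs. Late CMDMs stood at 293, 272 and 252 CPM and resident-like macrophages at 175, 313 and 208 CPM. All classical monocyte libraries lay above all others, while the other fractions overlapped with their neighbours. The level in classical monocytes was 1.92-fold that in early CMDMs and 2.14-fold that in late CMDMs. Early and late CMDMs differed by -0.16 on the log2 scale (late minus early), which was less than the standard error of 0.22.

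Ifitm2, which like Ifitm3 is known from endosomal membranes, was the member that differed least between fractions. The classical monocyte libraries held 444, 595 and 402 CPM and those of early CMDMs 257, 240 and 324 CPM. Late CMDMs held 376, 335 and 405 CPM, and resident-like macrophages 307, 425 and 373 CPM. The early CMDM libraries were the lowest against both classical monocytes and late CMDMs without overlap, and resident-like macrophages overlapped with each other fraction. The level in classical monocytes was 1.75-fold that in early CMDMs and 1.29-fold that in late CMDMs. Late CMDMs stood 1.36-fold above early CMDMs, at a log2 difference of 0.44 (SE 0.16). Per kilobase, Ifitm2 made up 54.7 to 61.3% and Ifitm3 36.8 to 43% of the summed level in late CMDMs, and 56 to 62% and 33.4 to 39.8% in resident-like macrophages, so Ifitm2 had the higher value in each of those 6 libraries.

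Ifitm6 showed the widest range of the members. It was found at 74, 141 and 39 CPM in classical monocytes and at 10.2, 20.7 and 14.2 CPM in resident-like macrophages. Early CMDMs had 6.25, 5.37 and 5.89 CPM, and late CMDMs had 7.41, 7.9 and 5.12 CPM. Classical monocytes were highest, resident-like macrophages came next, and the 2 CMDM fractions overlapped at the bottom. The classical monocyte level was 14.5-fold that in early CMDMs and 12.4-fold that in late CMDMs. The classical monocyte libraries themselves spanned 3.61-fold, the widest spread of any member within a fraction. Every library held at least 76 counts of Ifitm6, so the low levels were measured and not near the detection floor.

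Ifitm1 followed the same order as Ifitm6 for the top 2 fractions. Its replicates had a coefficient of variation of 11.7 to 16% in each fraction, against 61.2% for Ifitm6 in classical monocytes and 7.51% in early CMDMs. It was measured at 33.2, 39.7 and 45.8 CPM in classical monocytes and at 12.8, 13.2 and 15.8 CPM in resident-like macrophages. The libraries of early CMDMs had 8.66, 7.84 and 10.6 CPM and those of late CMDMs 6.61, 7.66 and 8.63 CPM. Classical monocytes and resident-like macrophages each stood apart from the rest, and early and late CMDMs overlapped. The classical monocyte level was 4.37-fold that in early CMDMs and 5.17-fold that in late CMDMs. Within a fraction the libraries differed by at most 1.38-fold.

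**Figure D1:**
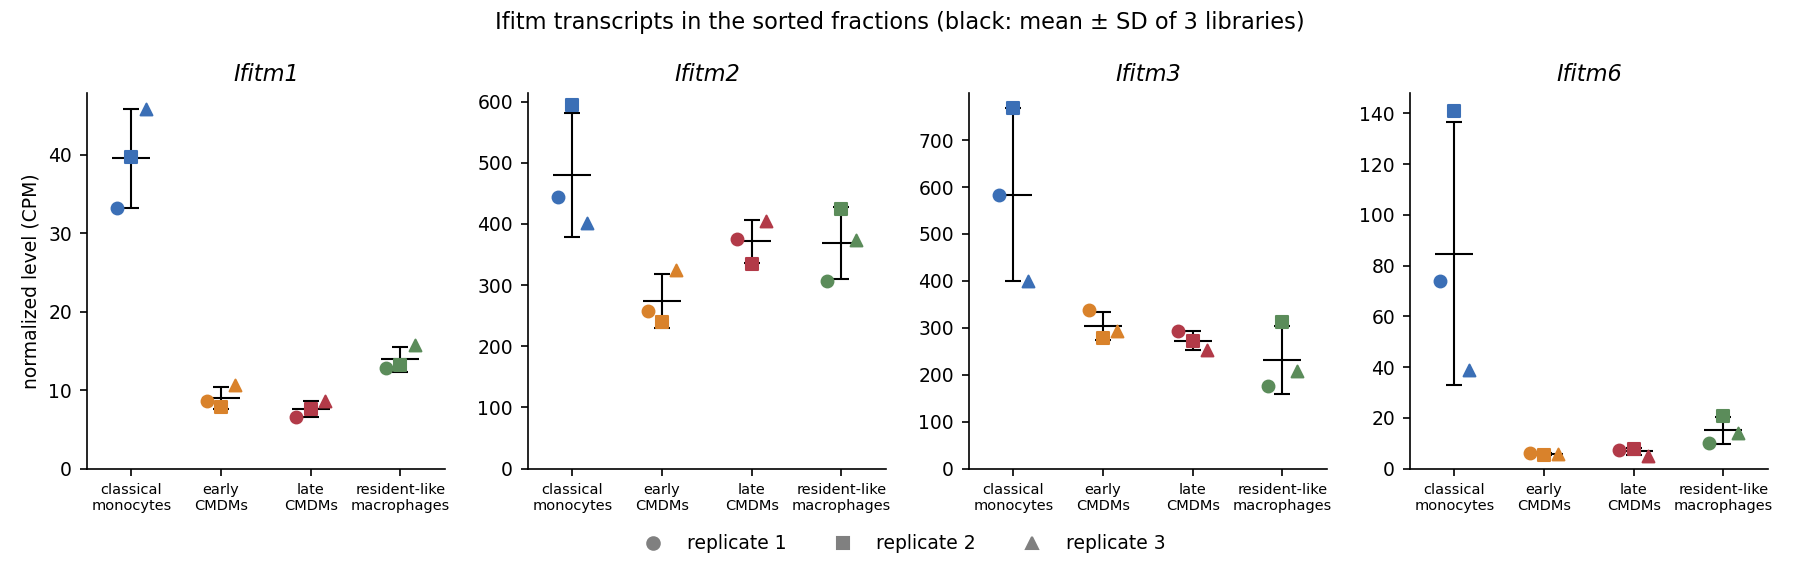
Levels of Ifitm1, Ifitm2, Ifitm3 and Ifitm6 in CPM (vertical axes, each starting at 0) in the 4 fractions, with 1 symbol per library and black bars for the mean ± SD of 3 libraries. Ifitm1 and Ifitm6 are highest in classical monocytes and lie between them and CMDMs in resident-like macrophages, while Ifitm2 stays between 240 and 595 CPM throughout and, scaled on pan-leukocyte genes, is with Ifitm3 higher in early CMDMs than in classical monocytes.

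In early CMDMs against classical monocytes all 4 members were lower without overlap of the libraries, which was also true of 25.8% of all genes tested, and in late CMDMs 3 of 4 were, against 23.9% of genes. Between the CMDM fractions only Ifitm2 did not overlap, being higher in late CMDMs as 23.1% of genes were. These contrasts served to choose the members and nothing is read from the counts. The directions depend on the scaling for the abundant members. When libraries were scaled on the 10 pan-leukocyte genes, the median of all genes moved to 1.84 in early CMDMs and 1.06 in late CMDMs against classical monocytes (log2), and the log2 differences of early CMDMs became -0.29 for Ifitm1, 1.03 for Ifitm2, 0.93 for Ifitm3 and -1.99 for Ifitm6. Those of late CMDMs became -1.29, 0.71, -0.0215 and -2.54. Ifitm1 and Ifitm6 were thus lower than in classical monocytes on both scales, Ifitm3 was higher in early CMDMs on the pan-leukocyte scale, and Ifitm2 was higher in both CMDM fractions on that scale. Between early and late CMDMs, where the median of all genes moved to -0.759, the sign turned for Ifitm2 (to -0.33) and for Ifitm6 (from 0.22 to -0.55).

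The resident-like libraries were not used to choose the members, so their contrasts could be tested, with the reservation that the libraries on the other side had been used. EdgeR was fitted across 22118 genes, and an adjusted p (Benjamini-Hochberg) below 0.05 was called. Resident-like macrophages had lower levels of 3 of 4 members than classical monocytes, and 12.9% of all genes tested were called lower. The same 3 had no overlap between libraries, as was the case for 17.5% of genes. Ifitm6 fell by 2.50 on the log2 scale (SE 0.41, edgeR adjusted p = 0.000956), Ifitm1 fell by 1.51 (SE 0.15, adjusted p = 1.42e-06) and Ifitm3 fell by 1.33 (SE 0.23, adjusted p = 0.000574). Ifitm2 differed by -0.38 (95% interval -0.721 to -0.0455) and did not pass, with an edgeR adjusted p of 0.0988. It passed without classical monocytes replicate 3 (-0.50, edgeR adjusted p = 0.0352) and when scaled on library size only (-0.56, edgeR adjusted p = 0.0131), a scale on which the median of all genes moved by -0.171. On the pan-leukocyte scale the 4 differences were -1.26, -0.13, -1.08 and -2.24 for Ifitm1, Ifitm2, Ifitm3 and Ifitm6, with the same 3 called.

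Against early CMDMs, resident-like macrophages had higher levels of 3 members, and 21.4% of all genes tested were called higher. The libraries did not overlap for Ifitm1 and Ifitm6, as for 26.9% of genes. Ifitm6 was 2.57-fold higher (log2 1.36, SE 0.45, edgeR adjusted p = 0.029), Ifitm1 1.54-fold higher (log2 0.62, SE 0.16, adjusted p = 0.00432) and Ifitm2 1.34-fold higher (log2 0.43, SE 0.16, adjusted p = 0.0377). Ifitm3 differed in the opposite direction, at -0.39 (95% interval -0.867 to 0.0941, edgeR adjusted p = 0.176). On the pan-leukocyte scale, where the median of all genes moved to -1.58, Ifitm1, Ifitm2 and Ifitm3 were called lower (-0.96, -1.16 and -2.01) and Ifitm6 was at -0.25 (edgeR adjusted p = 0.59), so the calls went from 3 higher and 0 lower to 0 higher and 3 lower. The Ifitm6 call was lost without early CMDMs replicate 1 (1.41), replicate 2 (1.30), replicate 3 (1.37) or resident-like replicate 2 (1.06). That of Ifitm2 was lost without early CMDMs replicate 1 (0.38) or replicate 2 (0.34) or resident-like replicate 2 (0.31) or replicate 3 (0.42), and Ifitm3 was called lower without resident-like replicate 2 (-0.66, edgeR adjusted p = 0.0188). The call of Ifitm1 held whichever library was left out.

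Against late CMDMs, only Ifitm1 passed the test, at 1.82-fold higher in resident-like macrophages (log2 0.86, SE 0.16, edgeR adjusted p = 0.000849), where 12.7% of all genes tested were called higher. Ifitm6 was 2.2-fold higher without overlap of the libraries, as 20.8% of genes were, but its edgeR adjusted p was 0.0846 (95% interval of the log2 difference 0.148 to 2.13). Its 3 resident-like libraries held 189 to 342 counts and the late CMDM libraries 76 to 130. It passed with DESeq2 (1.13, adjusted p = 0.047) and in an edgeR fit of the 6 libraries alone (1.14, adjusted p = 0.00575). Ifitm2 and Ifitm3 showed log2 differences of -0.0133 (95% interval -0.351 to 0.324) and -0.23 (95% interval -0.712 to 0.249). On the pan-leukocyte scale, where the median of all genes moved to -0.82, Ifitm1 was at 0.0373 (edgeR adjusted p = 0.87), and Ifitm2 and Ifitm3 were called lower, at -0.84 and -1.06.

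**Figure D2:**
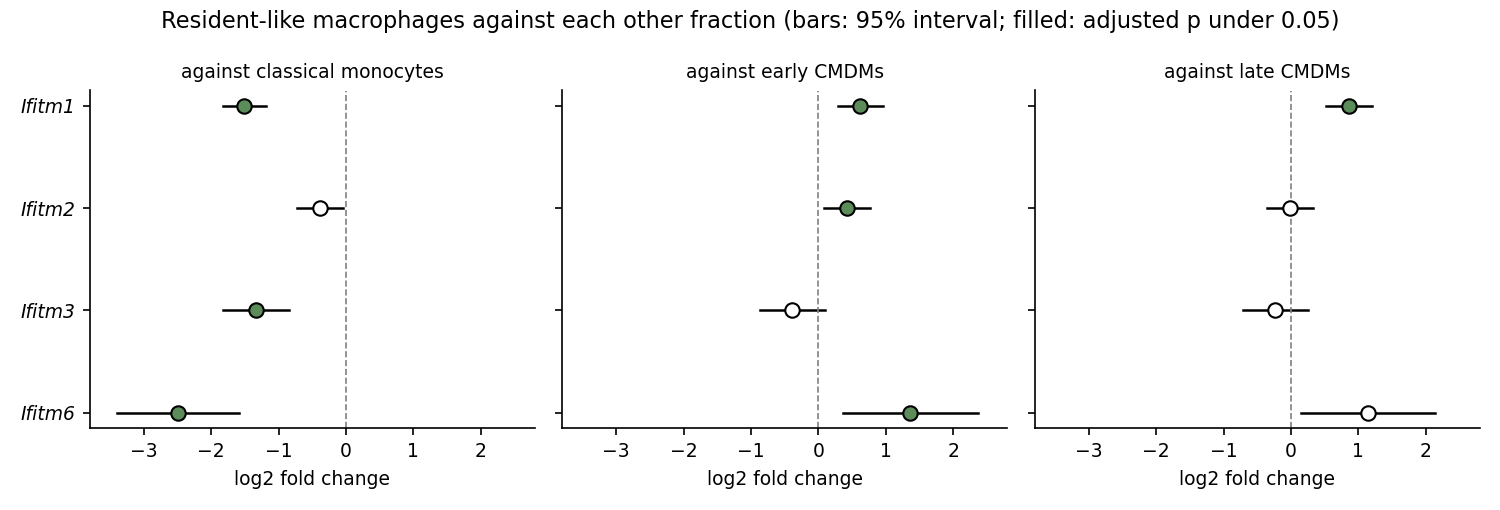
Log2 fold change of each member in resident-like macrophages against classical monocytes, early CMDMs and late CMDMs (horizontal axes), with bars for the 95% interval and filled circles for an edgeR adjusted p under 0.05. Ifitm1 passes in all 3 comparisons, lower than classical monocytes and higher than both CMDM fractions, and Ifitm3 passes against classical monocytes only, while on the pan-leukocyte scale Ifitm1, Ifitm2 and Ifitm6 turn below 0 against early CMDMs, Ifitm6 without passing the test.

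Ratios of members within a library do not depend on how libraries are scaled against each other. The log2 ratio of Ifitm6 over Ifitm3 was -3.36 to -2.45 in classical monocytes, -5.76 to -5.64 in early CMDMs, -5.62 to -5.11 in late CMDMs and -4.1 to -3.88 in resident-like macrophages. Resident-like macrophages thus lay between classical monocytes and CMDMs without overlap. The mean ratio was higher in resident-like macrophages than in late CMDMs by 1.38 for Ifitm6 over Ifitm3, by 1.14 for Ifitm1 over Ifitm3 and by 1.13 for Ifitm6 over Ifitm2, with no overlap. Each of these gave p = 0.1 in a two-sided exact permutation test, the smallest that 3 against 3 libraries allow, and 0.15 after adjustment over 6 pairs, so the design cannot reach 0.05. Ifitm6 over Ifitm1 differed by 0.24 (exact permutation p = 0.6), less than its SD of 0.525 in resident-like macrophages. Without resident-like replicate 2 or late CMDMs replicate 3 this last difference was -0.0589 or -0.0457.

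The replicate with the highest Ifitm3 was also that with the highest Ifitm6 in every fraction but late CMDMs. Replicate 1 was highest for most of the 35 interferon-stimulated genes in all 4 fractions, and Ifitm3 was highest in that replicate in both CMDM fractions but not in the other two. Among classical monocytes, replicate 2 had the highest Ifitm2, Ifitm3 and Ifitm6 and the lowest level of 27 of 35 interferon-stimulated genes, while replicate 1 was highest for 26 of them. Replicate 3 had the lowest Ifitm2, Ifitm3 and Ifitm6 and the highest Ifitm1. Among resident-like macrophages, replicate 2 again had the highest Ifitm2, Ifitm3 and Ifitm6, and replicate 1 had the lowest of all 4 members and the highest level of 23 interferon-stimulated genes. Among early CMDMs, replicate 1 was highest for Ifitm3, Ifitm6 and 29 of the 35 genes, and replicate 2 was lowest for 32 of them and for all 4 members. Among late CMDMs, replicate 1 was highest for Ifitm3 and 32 of the 35 genes, replicate 2 for Ifitm6, and replicate 3 for Ifitm1 and Ifitm2. Once the mean of each fraction was removed, Pearson r of log2 CPM over the 12 libraries was 0.94 for Ifitm3 with Ifitm6, 0.713 for Ifitm2 with Ifitm3 and 0.68 for Ifitm2 with Ifitm6. It was -0.31 for Ifitm1 with Ifitm3 and -0.277 for Ifitm1 with Ifitm6, and between -0.219 and -0.0446 for each member with the mean of the 35 genes. These r values are a description over libraries that share fraction, depth and scaling.

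**Figure D3:**
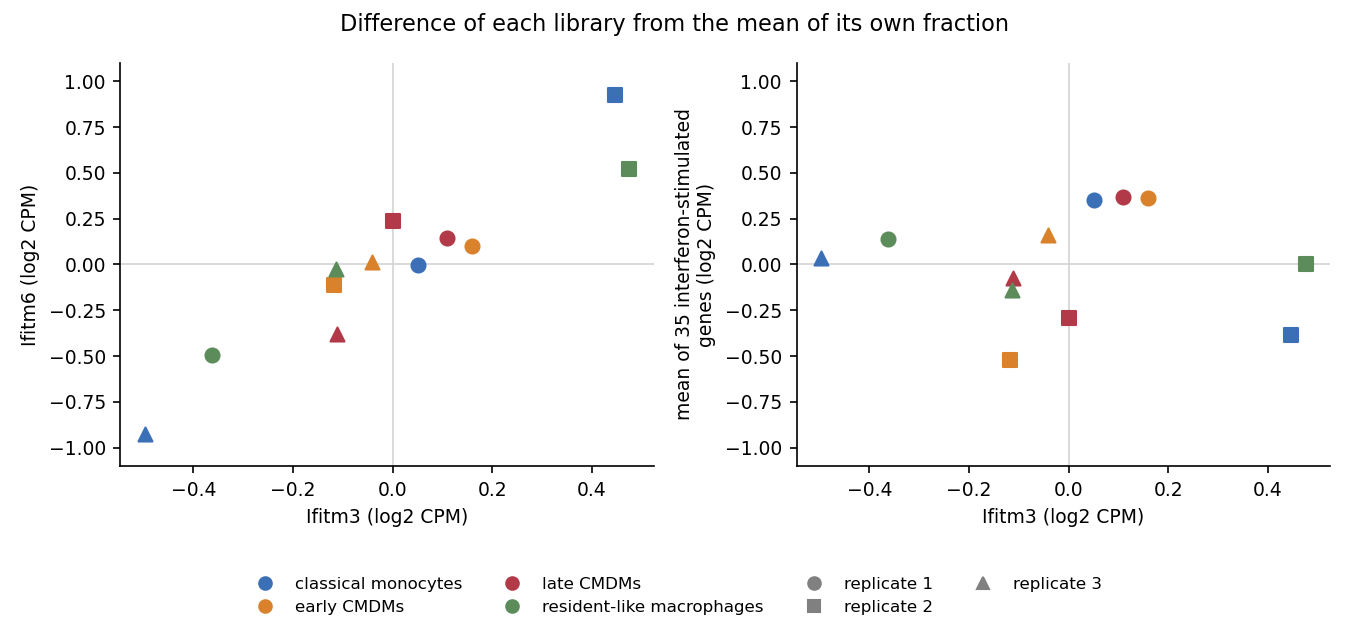
Difference of each of the 12 libraries from the mean of its own fraction (log2 CPM), for Ifitm3 (horizontal axes) against Ifitm6 (left) and against the mean of 35 interferon-stimulated genes (right), with colours for fractions and symbols for replicates. Ifitm3 and Ifitm6 lie along a line (r = 0.94), and classical monocytes replicate 2 is at 0.45 for Ifitm3 but at -0.38 for the 35 genes.

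Interferon receptors were mostly lower in CMDMs than in classical monocytes. On the TMM scale, 4 of 5 receptor genes were lower and 1 higher in early CMDMs, with the same numbers in late CMDMs. Of all genes tested, 20.6 and 17.5% were called lower in these fractions and 24.2 and 18.1% higher. Ifngr1, a chain of the interferon-γ receptor, fell by 1.59 in early CMDMs (SE 0.10, edgeR adjusted p = 5.01e-09) and by 1.83 in late CMDMs. Ifnar1 and Ifnar2, the type I interferon receptor chains, fell by 1.75 and 1.39 in early CMDMs and by 1.38 and 0.63 in late CMDMs. In resident-like macrophages Ifnar1, Ifnar2 and Ifngr1 were lower than in classical monocytes by -0.76, -0.54 and -1.21 and all 3 were higher than in early CMDMs by 0.99, 0.85 and 0.37 (edgeR adjusted p = 2.41e-06, 6.16e-05 and 0.00462). Against late CMDMs Ifnar1 and Ifngr1 were both higher by 0.62, and Ifnar2 differed by 0.09 (edgeR adjusted p = 0.648). The shift of 1.85 that the pan-leukocyte scale brought in early CMDMs exceeded the size of each of these decreases there, and its shift of -1.61 exceeded the increases against early CMDMs. In late CMDMs its shift of 1.07 exceeded the decrease of Ifnar2 but not those of Ifngr1 and Ifnar1. The shift of -0.823 in resident-like macrophages against late CMDMs exceeded in size the increases of 0.62.

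Of the 10 signalling genes, 6 were lower in early CMDMs and 5 lower and 1 higher in late CMDMs than in classical monocytes, and 3 were lower in resident-like macrophages. Of all genes tested, 20.6, 17.5 and 12.9% were called lower in these fractions and 18.1% higher in late CMDMs. Irf8, a factor of the monocyte lineage, fell by 2.16 in early CMDMs (edgeR adjusted p = 3.31e-07), by 1.55 in late CMDMs (adjusted p = 1.33e-05) and by 1.48 in resident-like macrophages (adjusted p = 2.88e-05). The kinase Jak1 differed from classical monocytes by -0.24, -0.17 and -0.03 in the same order and did not pass. Irf1, which interferon-γ is known to induce, was 0.39 higher in late CMDMs than in classical monocytes (edgeR adjusted p = 0.018), and its early CMDM value was 0.003. Late CMDMs had 6 signalling genes higher than early CMDMs and resident-like macrophages had 7, with none lower, where 14.4 and 21.4% of all genes tested were called higher. The pan-leukocyte shifts in these contrasts were -0.783 and -1.61.

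Interferon genes themselves were low. Of 10 listed ligands, 6 were in the table and 2 passed the filter. Ifng, which encodes interferon-γ, was at 3.46 to 8.25 CPM in classical monocytes (63 to 134 counts) and had 3 counts or fewer in every CMDM library. Its log2 difference in resident-like macrophages against classical monocytes was -4.06 (edgeR adjusted p = 3.34e-05). The summed level of 7 T and NK cell markers moved with it, at 97.6 to 133 CPM in classical monocytes and 12.5 to 28.4 CPM in the other libraries, and the part of those cells was not tested. Ifnk, an interferon known from keratinocytes, was at 1.91 to 2.9 CPM in late CMDMs (24 to 43 counts) and at most 0.569 CPM elsewhere, while Ifnb1 had a median of 0.39 CPM in classical monocytes and 21 counts at most.

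Many of the interferon-stimulated genes were called lower in a macrophage fraction than in classical monocytes on the TMM scale, though 19 of 35 were not called in late CMDMs. Of 35 genes, 26 were lower and 0 higher in early CMDMs, and 16 were lower and 0 higher in late CMDMs. In resident-like macrophages 25 were lower and 1 higher. Of all genes tested, 20.6, 17.5 and 12.9% were called lower in these fractions and 24.2, 18.1 and 10.8% higher. The 35 genes had median log2 differences of -0.951, -0.645 and -0.955, against -0.013, -0.0135 and 0.00111 for all genes tested. The members' described differences lay on both sides of those medians, with Ifitm1 and Ifitm6 below and Ifitm2 above in each. On the pan-leukocyte scale the calls were 23 higher and 1 lower in early CMDMs, 13 higher and 3 lower in late CMDMs and 1 higher and 16 lower in resident-like macrophages. Without classical monocytes replicate 1, 16 genes were lower in resident-like macrophages, and without classical monocytes replicate 2 or 3 or resident-like replicate 2, 0 were higher.

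Single genes of the list spread widely. Bst2, which encodes the antiviral protein tetherin, fell by 3.01 in early CMDMs (edgeR adjusted p = 5.55e-08), fell by 2.42 in late CMDMs and fell by 2.63 in resident-like macrophages. Irf7, the master factor of type I interferon induction, fell by 1.96 in early CMDMs and fell by 2.18 in resident-like macrophages. In late CMDMs Irf7 was also called lower, at -1.996 (edgeR adjusted p = 0.000511). Mx1, which encodes an antiviral GTPase, differed by -1.51, -1.30 and -1.65 in early CMDMs, late CMDMs and resident-like cells, and passed in each. Trim30a passed in the same comparisons, at -1.73, -0.71 and -0.60. Ifi27l2a passed at -0.80 in early CMDMs and -1.04 in resident-like macrophages, with -0.13 in late CMDMs (edgeR adjusted p = 0.764). Parp14 fell by 0.97 in early CMDMs and by 0.56 in resident-like macrophages, and the DNA sensor gene Ifi204 fell by 0.74 in early CMDMs only among the 3 comparisons with classical monocytes. The Ifit genes, which encode proteins that bind foreign RNA, were called lower only in resident-like macrophages, where Ifit1, Ifit2 and Ifit3 differed by -1.47, -2.22 and -2.17 (edgeR adjusted p = 0.0256, 0.0214 and 0.00944). In early CMDMs their differences were -0.44, -0.84 and -0.95 with edgeR adjusted p of 0.406, 0.253 and 0.13. In the direct contrasts none of the 3 passed between resident-like macrophages and early or late CMDMs (edgeR adjusted p 0.0553 to 0.0885).

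The interferon-stimulated genes were also compared between macrophage fractions. On the TMM scale late CMDMs had 8 higher and 1 lower than early CMDMs (background 14.4 and 17.5%), resident-like macrophages 8 higher and 1 lower than early CMDMs (21.4 and 25.1%) and 2 higher and 3 lower than late CMDMs (12.7 and 15.4%). On the pan-leukocyte scale these were 0 higher and 9 lower, 0 higher and 33 lower and 0 higher and 32 lower. Ifi204 was 1.08 higher in late than in early CMDMs (edgeR adjusted p = 0.000104), and Trim30a was 1.13 higher in resident-like macrophages than in early CMDMs (adjusted p = 0.000268). The single call of a lower gene between late and early CMDMs was lost without early CMDMs replicate 1 or 2 or late CMDMs replicate 2 or 3, when 0 were lower. The calls lower against early CMDMs went to 0 without early CMDMs replicate 1 and to 5 without its replicate 2. Those lower against late CMDMs went to 0 without late CMDMs replicate 1 or resident-like replicate 3, to 1 without resident-like replicate 1 and to 6 without late CMDMs replicate 2, and 1 was higher without late CMDMs replicate 2 or 3 or resident-like replicate 1.

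**Figure D4:**
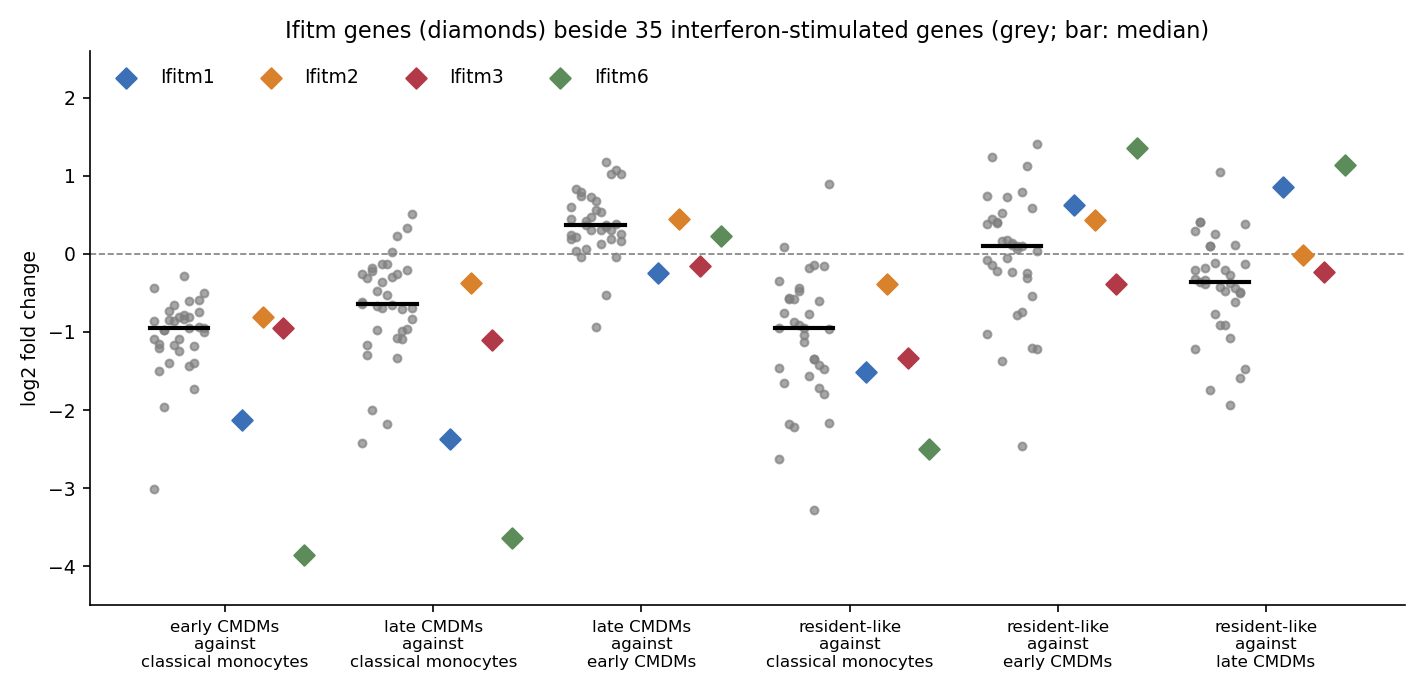
Log2 fold change in the 6 comparisons (vertical axis) of the 4 Ifitm genes (diamonds) and of 35 interferon-stimulated genes (grey points, bar at the median). Ifitm6 lies below every grey point in both CMDM fractions against classical monocytes, and Ifitm1 and Ifitm6 lie above 0 where resident-like macrophages are set against CMDMs while the grey median against late CMDMs is -0.355, but the pan-leukocyte scale turns Ifitm1 and Ifitm6 below 0 against early CMDMs.

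Partners of Ifitm proteins were called in both directions. Of 7 genes for proteins that bind or modify Ifitm proteins, 3 were higher and 1 lower in early CMDMs than in classical monocytes. In late CMDMs 2 were higher than in classical monocytes, and in resident-like macrophages 3 were. Of all genes tested, 24.2, 18.1 and 10.8% were called higher in these fractions, and 20.6% were called lower in early CMDMs. Cd9, a tetraspanin, was 1.60 higher in early CMDMs (edgeR adjusted p = 2.46e-07) and 1.18 higher in resident-like macrophages, and differed by 0.25 in late CMDMs (adjusted p = 0.203). Keratinocytes are also known to express Cd9, and the keratinocyte markers given above were highest in early CMDMs. Their sum was 2298 to 2615 CPM in resident-like macrophages, against 1871 to 4050 CPM in classical monocytes. The part of keratinocyte RNA in the Cd9 values was not tested. Atp6v0b, a subunit of the proton pump of endosomes and lysosomes, was 0.71 higher in late CMDMs and 0.61 higher in resident-like macrophages, with 0.07 in early CMDMs. Vapa, a protein of the endoplasmic reticulum that binds Ifitm3, differed from classical monocytes by -0.0142 to 0.15 and did not pass. In direct contrasts, resident-like macrophages had 2 of the 7 higher and 2 lower than early CMDMs and 1 higher than late CMDMs, and late CMDMs had 3 higher and 2 lower than early CMDMs. Of all genes tested, 21.4% were called higher and 25.1% lower in the first of these contrasts, 12.7% higher in the second and 14.4% higher and 17.5% lower in the last.

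The remaining Ifitm genes were low. Ifitm5, known from bone-forming cells, was at 3.63 to 4.73 CPM in classical monocytes and 2.82 to 4.43 CPM in resident-like macrophages, which overlapped, and at 0.823 to 1.73 CPM for early and 0.944 to 2.23 CPM for late CMDMs. Against classical monocytes it differed by -1.81 in early and -1.49 in late CMDMs (edgeR adjusted p = 0.000207 and 0.00134) and was higher in resident-like macrophages than in early CMDMs by 1.60 and than in late CMDMs by 1.29 (adjusted p = 0.000648 and 0.00604). Its gene at chr7:140948958-140950291 borders the cluster. Ifitm10 at chr7:142325837-142373753 was at 2 to 6.26 CPM and lower in resident-like macrophages than in classical monocytes and early CMDMs by -0.89 and -1.08 (edgeR adjusted p = 0.00432 and 0.00041). It was also lower in late than in early CMDMs by -0.70 (edgeR adjusted p = 0.0144). Ifitm7, on chromosome 16, was at 0.506 to 1.91 CPM and passed in none of the 6 comparisons (edgeR adjusted p 0.101 to 0.93). The pan-leukocyte scale shifted the median gene by 1.85 and 1.07 in early and late CMDMs against classical monocytes. In resident-like macrophages its shifts were -1.61 against early and -0.823 against late CMDMs. The shifts of 1.85 and -1.61 were about as large as the Ifitm5 differences in those contrasts and of opposite sign.

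Within 50000 bases of the cluster's ends, 9 other genes were in the table. Gm45717, a gene model that overlaps both Ifitm5 and Ifitm2 on the same strand at chr7:140949222-140955937, was at 38.6 to 97.8 CPM. Pgghg, a glycoside hydrolase gene, was at 5.37 to 9.68 CPM, and Nlrp6, an inflammasome sensor gene, at 0.0796 to 0.77 CPM. Gm7514, a pseudogene between Ifitm1 and Ifitm3, did not exceed 1.04 CPM. 

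**Figure D5:**
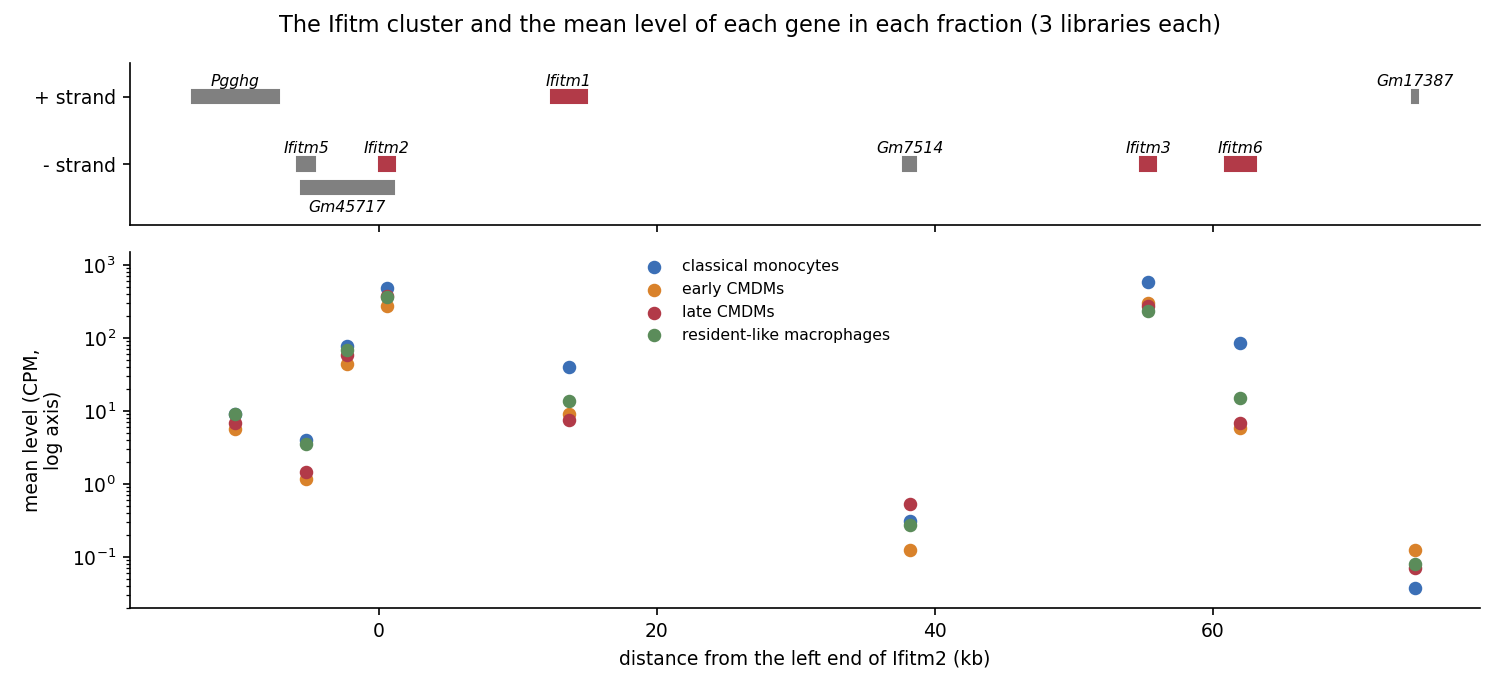
Genes of the Ifitm cluster by strand (top, members in red) and the mean level of each gene in each fraction (bottom, CPM on a log axis, 3 libraries per mean, to compare fractions and not genes) against the distance from the left end of Ifitm2 in kb. Classical monocytes are highest for all 4 members, most clearly for Ifitm1 and Ifitm6, on the TMM scale. On the pan-leukocyte scale they are below early CMDMs for Ifitm2 and Ifitm3 and below late CMDMs for Ifitm2.

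Part of the Ifitm2 reads cannot be assigned with certainty. Of the 50-base stretches of its transcript, 48.5% also occurred in another gene, among them Gm45717, Gm8865 and Gm11951, against 10% for Ifitm3, 7.71% for Ifitm1 and 0% for Ifitm6. Gm45717 stood at 14.6 to 19.5% of the Ifitm2 level in a library. With its counts added to Ifitm2, an alternative chosen after seeing the data, the log2 differences of Ifitm2 in resident-like macrophages were -0.36, 0.46 and 0.0221 against classical monocytes, early CMDMs and late CMDMs (edgeR adjusted p = 0.127, 0.0279 and 0.934).

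Among 10082 genes with a mean of at least 10 CPM, those most like a member over the 12 libraries were found by Pearson r of log2 CPM. For Ifitm1 they were Ifngr1 (r = 0.985), Gpr35, which encodes a G protein-coupled receptor (r = 0.982), and Trem1, which encodes an activating receptor of neutrophils and monocytes (r = 0.982). Listed from classical monocytes through early and late CMDMs to the resident-like fraction, their mean levels were 382, 127, 107 and 165 CPM for Ifngr1, 130, 26.2, 21 and 38.3 CPM for Gpr35 and 243, 22.4, 14.4 and 38.6 CPM for Trem1, in each case the order found for Ifitm1. For Ifitm6 they were the long non-coding RNA Morrbid (r = 0.972), Add3 (r = 0.969) and Cdkn1b (r = 0.962), which encode a cytoskeletal adducin and a cell cycle inhibitor. For Ifitm2 they were Gm8865 (r = 0.976), Gm11951 (r = 0.971) and Gm45717 (r = 0.947), all of which share 50-base stretches with Ifitm2. For Ifitm3 the nearest was Gm7676 (r = 0.989), which shares such stretches with Ifitm3, followed by Thbd, which encodes thrombomodulin (r = 0.939), and Ndufaf7, which encodes an assembly factor of respiratory complex I (r = 0.926). The 12 points of each r share fraction, and no test is attached to them.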

How the data were processed

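Bulk RNA-seq libraries of 4 sorted fractions (3 each) were analysed. The deposited values are raw read counts per gene, whole numbers with no normalization by the authors. Per the labels, poly(A) RNA from 5000 to 80000 cells was made into libraries. The submitters' processing notes name cutadapt 4.1, Bowtie2 2.4.5 and GRCm38. Per the study's methods, reads were mapped to Ensembl transcripts (release 101) on 1 strand and counts were summed by gene symbol, so reads of near-identical genes could be split between them.

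Counts were TMM-scaled and tested with edgeR 4.0.16 in R 4.3.3 (filterByExpr by fraction, quasi-likelihood, robust, all 12 libraries, 6 comparisons). P-values were Benjamini-Hochberg adjusted over 22118 of 37775 genes, with a threshold of 0.05. Total counts of 12537178 to 19844113 per library put a floor of 3 counts at 0.162 to 0.239 CPM. Intervals and floors cover counting and replicate spread only. DESeq2 1.42.0, other scalings, filters and thresholds, a replicate block and leaving out each library were tried. On counts simulated for 21678 genes, 200 genes were changed 3-fold in resident-like macrophages and the rest were kept equal between fractions. Of the 200 genes, 95.5%, 97.5% and 95.5% were recovered against classical monocytes, early CMDMs and late CMDMs, with 10, 13 and 11 false calls. Smaller changes were not simulated. No 2 libraries of a fraction agreed within sampling noise (chi-square per degree of freedom 4.63 to 24.7).

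Named genes were the 4 members, the other Ifitm genes in the table, the 6 most abundant interferon-stimulated genes with Ifit1, Ifit2, Ifit3 and Mx1, the 3 most abundant of each other list, the 3 genes most like each member, and neighbours. Members and lists were chosen with earlier results of these data known. Positions come from GENCODE M21 and promoters from RefSeq.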

Additional observations from a re-analysis of the deposited data

How the results depend on the processing

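The members had at least 76 counts in each library. Scaling on 10 pan-leukocyte genes moved most values. Among the described differences it turned Ifitm2 and Ifitm3 in early CMDMs against classical monocytes to 1.03 and 0.93, Ifitm2 in late CMDMs against classical monocytes to 0.71, and Ifitm2 and Ifitm6 in late against early CMDMs to -0.33 and -0.55. In resident-like macrophages it gave -0.96, -1.16, -2.01 and -0.25 for Ifitm1, Ifitm2, Ifitm3 and Ifitm6 against early CMDMs and 0.0373, -0.84 and -1.06 for Ifitm1, Ifitm2 and Ifitm3 against late CMDMs. Members called went to 0 higher and 3 lower against early CMDMs and to 0 higher and 2 lower against late CMDMs. Interferon-stimulated genes called higher and lower were 23 and 1 in early CMDMs and 13 and 3 in late CMDMs against classical monocytes, 0 and 9 in late against early CMDMs, and 16 lower, 0 and 33, and 0 and 32 in resident-like macrophages against classical monocytes, early CMDMs and late CMDMs. On that scale the median of all genes moved by 1.85 and 1.07 in early and late CMDMs against classical monocytes, by -0.783 between late and early CMDMs, and for resident-like macrophages by 0.249, -1.61 and -0.823 against classical monocytes, early and late CMDMs. In that order 97.9, 95.1, 2.09, 70, 1.53 and 3.12% of calls over all genes were higher.

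With library size only, Ifitm2 against classical monocytes was -0.56, and Ifitm2 and Ifitm6 against early CMDMs were 0.26 and 1.19, so 1 member was higher there. It left 0 interferon-stimulated genes higher against classical monocytes, 3 lower against early CMDMs and 1 higher and 10 lower against late CMDMs, while 24.1, 31.5 and 28% of calls over all genes were higher. Scaling on genes not called at first (DEGES, 3 rounds) gave 0.32 for Ifitm2 against early CMDMs, 3 interferon-stimulated genes lower there and 8 lower against late CMDMs. DESeq2 gave 1.13 for Ifitm6 against late CMDMs, so 2 members were higher, with 2 and 9 interferon-stimulated genes lower against early and late CMDMs. The 6 libraries of a comparison alone gave 1.14 for Ifitm6 against late CMDMs, 2 members higher, and 5 and 9 interferon-stimulated genes lower against early and late CMDMs.

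Without a filter on low counts Ifitm6 against early CMDMs was 1.35 (edgeR adjusted p = 0.0852). The interferon-stimulated genes lower were then 0 in late against early CMDMs and 14 and 0 in resident-like macrophages against classical monocytes and early CMDMs, with 0 higher against classical monocytes and 1 higher against late CMDMs. With at least 10 counts in every library, 6 were lower against late CMDMs. At a threshold of 0.1, 13 were higher in late against early CMDMs, 5 and 10 were lower in resident-like macrophages against early and late CMDMs, and 2 members were higher against late CMDMs. At 0.01, 0 were lower in late against early CMDMs, 0 higher and 15 lower against classical monocytes, 0 lower against early CMDMs and 1 higher and 0 lower against late CMDMs, and 1 member was higher against early CMDMs. With a log2 difference of at least 1 besides, 14 and 7 were lower in early and late CMDMs against classical monocytes, 4 higher and 0 lower in late against early CMDMs, 0 higher and 16 lower, 3 higher, and 1 higher and 1 lower in resident-like macrophages against classical monocytes, early CMDMs and late CMDMs, and 1 and 0 members were higher against early and late CMDMs. With the counts of Gm45717 added, an alternative chosen after seeing the data, Ifitm2 against late CMDMs was 0.0221, from -0.0133. The cause of these changes was not tested.

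The replicate numbers were not treated as pairing the libraries, since deviations of same-numbered libraries correlated over all genes at -0.0987 to 0.248, with at least 1 value under 0.1 in each comparison. As a hint from the data and not from the design, 6 of 6 libraries correlated best with their own number in early CMDMs against classical monocytes and in resident-like macrophages against late CMDMs, and 2 to 5 of 6 in the other comparisons. Replicate 1 was also highest for 26 of the 35 interferon-stimulated genes in classical monocytes, for 29 and 32 in early and late CMDMs and for 23 in the resident-like fraction, so their counts without the block ignore a deviation shared by number. With the replicate block, Ifitm6 against late CMDMs was 1.14 (edgeR adjusted p = 0.0387), so 2 members were higher, 14 interferon-stimulated genes were higher in late against early CMDMs, and 6 and 11 were lower in resident-like macrophages against early and late CMDMs. The block changed no other call of a member.

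Leaving out each library in turn gave resident-like differences of -0.50 to -0.20 for Ifitm2 against classical monocytes, 0.31 to 0.57, -0.66 to -0.22 and 1.06 to 1.58 for Ifitm2, Ifitm3 and Ifitm6 against early CMDMs, and -0.13 to 0.10 for Ifitm2 against late CMDMs. Against early CMDMs 1 to 3 members were higher and 0 to 1 lower. Interferon-stimulated genes lower in late against early CMDMs were 0 to 1. In resident-like macrophages 0 to 1 were higher and 16 to 27 lower against classical monocytes, 0 to 5 lower against early CMDMs, and 1 to 2 higher and 0 to 6 lower against late CMDMs. The ratio of Ifitm6 over Ifitm1 was -0.0589 to 0.433. Of 123 tested values of members under the alternatives other than leaving out a library, 107 kept direction and side of the threshold. The call of Ifitm1 against classical monocytes was made under each of these alternatives and whichever library was left out.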

Other observations

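Some genes of the fixed lists stood at the ends of their ranges and are named here after their values were seen. Ifnlr1, the receptor chain of type III interferon, was the receptor gene called in the opposite direction to the others, 2.11 higher in early and 0.80 higher in late CMDMs than in classical monocytes. The early CMDM libraries also had the highest keratinocyte marker levels, and the part of keratinocyte RNA in that value was not tested. Oasl1, a member of the oligoadenylate synthetase-like family, was the interferon-stimulated gene called higher in resident-like macrophages than in classical monocytes, by 0.90 (edgeR adjusted p = 0.0212). Ifit1bl1 had the lowest value of the list there, at -3.27, and against early and late CMDMs at -2.46 and -1.94. Nedd4, which encodes a ubiquitin ligase known to mark Ifitm3 for degradation, was 1.53 higher in early CMDMs than in classical monocytes (edgeR adjusted p = 3.91e-06) and lower in late CMDMs and resident-like macrophages than in early CMDMs by -1.20 and -1.38.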
